A study of Mus musculus with 8 samples.

Results

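Genes that mark newly formed and premyelinating oligodendrocytes were followed, 10 in all, as a check of maturation stage in oligodendrocytes of mice that lack microglia. The list held 10 of the 18833 genes in the matrix and was *Enpp6*, *Bcas1*, *Tcf7l2*, *Nkx2-2*, *Gpr17*, *Itpr2*, *Fyn*, *Neu4*, *Tmem2* (written *Cemip2* in the matrix) and *Ctps*. The rule was this list of names. The cells were 12581 oligodendrocytes from the hippocampus and the cortex of 2 WT and 2 KO female mice, profiled by droplet single-cell RNA sequencing in 8 libraries. KO mice (FIREdelta/delta) carried a homozygous germline deletion of the *Fire* super-enhancer of *Csf1r*, a model in which microglia are missing but other brain macrophages remain, and WT mice carried the intact enhancer. WT mouse 1 and KO mouse 3 were aged 1 month and 18 days, and WT mouse 4 and KO mouse 6 were aged 1 month and 16 days. Cortex stands for the left hemisphere without its hippocampus. The cells had been selected for myelin genes and against markers of other cell types and had been placed by the authors in the clusters Oligo1 to Oligo4, so cells at the earliest steps of differentiation could only be seen where they passed that selection.

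Oligodendrocytes arise from progenitors that leave the cell cycle, pass through a premyelinating stage in which they extend processes and test contacts with axons, and then either die or wrap axons with myelin. The premyelinating stage is short, and several of its genes fall again as myelin proteins are made. *Gpr17*, a surface receptor that holds cells back from terminal differentiation, and *Neu4*, a sialidase, belong to the early part of this stage. *Enpp6*, a choline-specific phosphodiesterase, *Bcas1*, *Itpr2*, a calcium channel of the endoplasmic reticulum, and *Tcf7l2*, an effector of Wnt signalling, are used to find cells that are about to myelinate or have just begun to.

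The libraries held between 904 and 2784 cells, with a median of 9377 to 13730 UMIs per cell. Myelin genes marked the cells as labelled: *Mog*, a protein of the myelin surface, had a UMI in every cell of every library, whereas *Pdgfra*, the progenitor receptor, had one in 0.996% to 4.75% of cells. Of a list of 6 progenitor genes, *Pdgfra* among them, 3 stayed under 5% of cells in every library. The commonest of the 6, *Ptprz1*, had a UMI in 12.7% to 14.7% of cells in WT libraries and in 10.5% to 18.7% in KO libraries. *Csf1r*, whose enhancer was deleted, had a UMI in 5.31% to 10.2% of cells in WT libraries, and in KO libraries in 0.0718%, 0.0931% and 0.155% of cells and in 0 of 904 cells, which allows a share of up to 0.332%. Summed microglial markers made up 0.533 to 1.26 UMIs per 10000 in WT libraries and 0.152 to 0.214 in KO libraries, and *Tmem119* was at 0 in every KO library. There were 21 cell barcodes that occurred in more than 1 library.

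*Enpp6* showed the largest difference between genotypes of any member, and within Oligo2, Oligo3 and Oligo4 that difference was smaller. Its mean level, as the mean over cells of log2(normalized UMIs + 1), was 0.51 in the hippocampus and 0.79 in the cortex of WT mouse 1, and 0.67 and 0.66 in WT mouse 4. In KO mouse 3 it was 0.78 in the hippocampus and 1.03 in the cortex, and in KO mouse 6 it was 0.69 and 0.86. The highest libraries were both KO cortex and the lowest was WT hippocampus, but the 2 genotypes overlapped, since the cortex of WT mouse 1 lay above both KO hippocampus libraries.

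Averaged over the tissues of each mouse, *Enpp6* stood at 0.66 ± 0.012 in WT and 0.84 ± 0.095 in KO (mean ± SD, n = 2 mice each). The difference, KO minus WT, was 0.18 with a standard error of 0.054 and a 95% interval of 0.017 to 0.35. It was larger than 99.3% of the 9257 genes tested, but the adjusted p of limma's moderated test was 0.9997, so the difference was not called. In this comparison limma called 0% of all genes (0 of 9257, with 209 at an unadjusted p under 0.05), whereas edgeR's quasi-likelihood test called 8, none of them a member. Those 8 included the microglial genes *C1qa* and *C1qb*, which limma tested and did not call. *C1qa* had a UMI in 7.60% to 16.7% of cells in WT libraries and in at most 0.103% in KO libraries. With 2 mice a genotype, the lack of a call by limma is therefore not evidence that a gene was unchanged. As UMIs per 10000, *Enpp6* came to 1.36 ± 0.038 in WT and 1.73 ± 0.12 in KO, a ratio of 1.27.

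**Figure D1:**
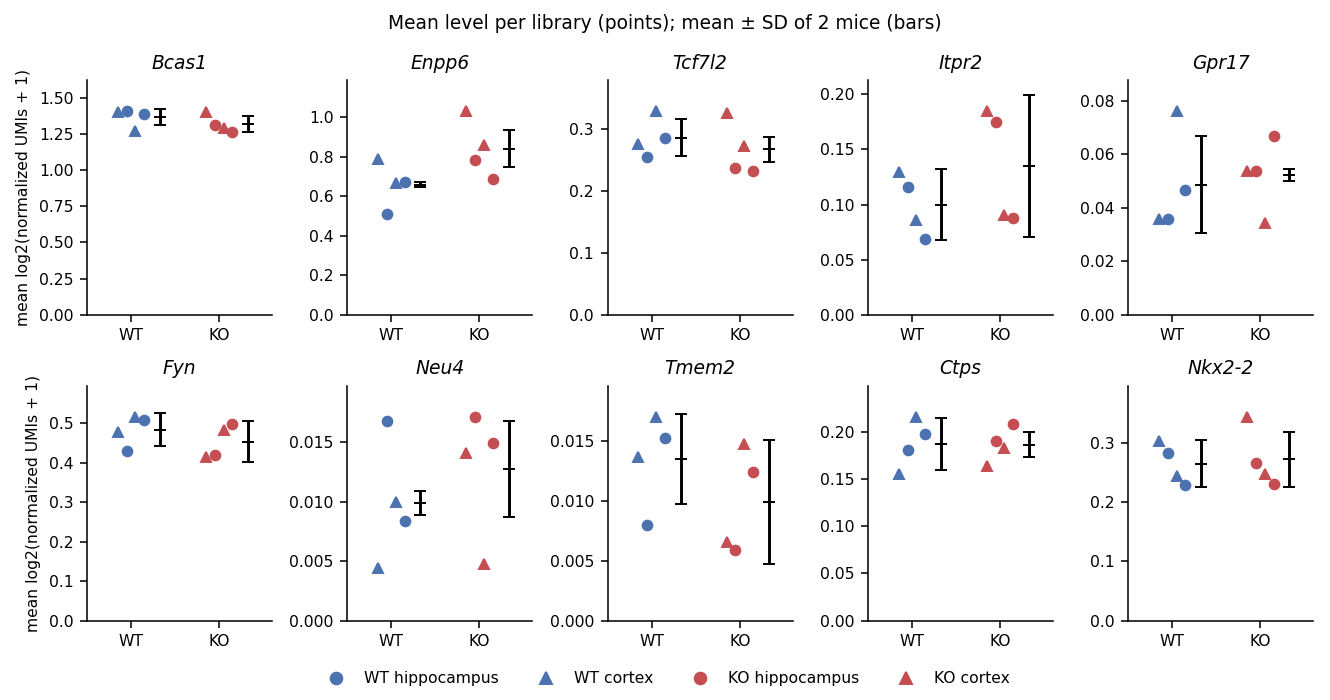
Mean level of each gene as log2(normalized UMIs + 1) on the vertical axis for the 4 WT and 4 KO libraries, circles for hippocampus and triangles for cortex, each gene on its own axis from 0. Black bars give the mean ± SD over the 2 mice of a genotype. *Enpp6* lies higher in KO (0.84) than in WT (0.66), and the genotypes overlap for every gene.

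The same shift was seen in the share of cells in which an *Enpp6* UMI was found. After each cell was thinned to 5000 UMIs, so that depth was equal, this share was 24.8% and 36.7% in the hippocampus and cortex of WT mouse 1, and 29.8% and 29.7% in WT mouse 4. In KO mouse 3 it was 37.6% and 45.4%, and in KO mouse 6 it was 32.6% and 38.3%. Mouse means were 30.2% ± 0.672 in WT and 38.5% ± 4.30 in KO, which gave a two-sided exact permutation p of 0.3333, the smallest that 2 mice against 2 can give. Without thinning, the shares ran from 32.2% to 49.5% in WT libraries and from 42.7% to 63.2% in KO libraries.

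Each batch given with the cells held 1 WT and 1 KO library of the same tissue and age, and *Enpp6* was higher in KO in 4 of 4 batches. The difference was 0.27 in hippocampus and 0.24 in cortex for mice 1 and 3, and 0.019 in hippocampus and 0.19 in cortex for mice 4 and 6. In 1 of the 4 batches the gap was therefore close to 0. Without the cortex libraries of mice 4 and 6, a batch that the study describes as of poorer quality, the difference over all cells was 0.14 (SE 0.086).

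Levels of *Enpp6* differed far more between clusters than between genotypes. In Oligo2 the 8 libraries lay between 1.86 and 2.17, in Oligo1, for which only the 4 KO libraries had at least 10 cells, between 0.77 and 1.09, in Oligo3 between 0.26 and 0.60, and in Oligo4 between 0.068 and 0.18. No library of 1 cluster overlapped with a library of the next. These clusters were built from the expression of the same cells, so the order is a description and was not tested. Within Oligo2, *Enpp6* stood at 2.01 ± 0.079 in WT and 2.04 ± 0.015 in KO, and the difference was 0.029 with a 95% interval of -0.10 to 0.16. Within Oligo3 the levels were 0.36 ± 0.019 and 0.40 ± 0.11, with a difference of 0.047 (interval -0.14 to 0.23), and within Oligo4 they were 0.10 ± 0.026 and 0.11 ± 0.025, with a difference of 0.0078 (interval -0.069 to 0.085). limma's adjusted p values were 0.9999, 0.9999 and 0.9996. In these clusters limma called 0% of 9292, 9135 and 9381 genes, with 139, 103 and 282 at an unadjusted p under 0.05, and edgeR called 4, 3 and 25, no member among them.

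Oligo1, in which *Enpp6* averaged 0.95, made up 30.9% and 13.7% of the cells from hippocampus and cortex of KO mouse 3, 23.2% and 10.8% of those of KO mouse 6, and at most 0.573% of a WT library. Oligo3, with its lower level, made up 67.0% to 77.8% of WT libraries and 43.8% to 56.2% of KO libraries. Without Oligo1 cells the difference between genotypes over all other cells was 0.14 (SE 0.049), with an adjusted p of limma of 0.9998. Oligo2 made up 15.9% to 23.4% of WT libraries and 15.8% to 25.7% of KO libraries.

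**Figure D2:**
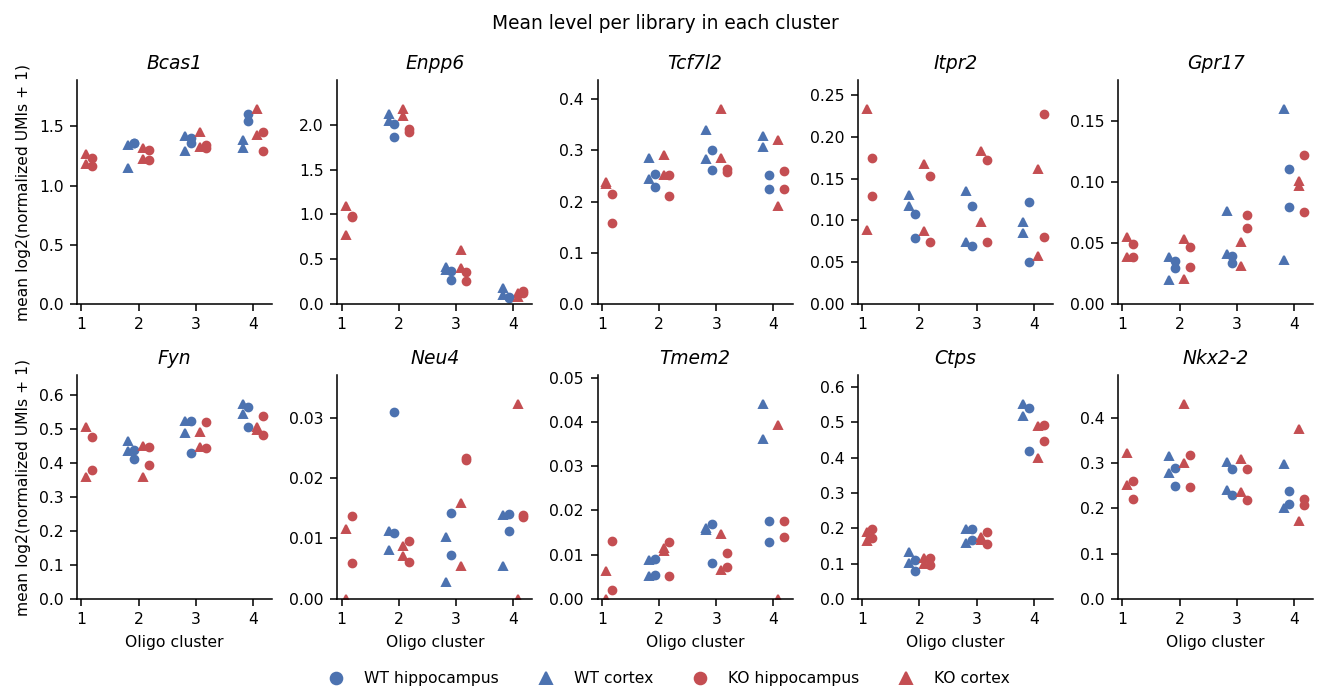
Mean level of each gene as log2(normalized UMIs + 1) on the vertical axis for each library within clusters Oligo1 to Oligo4 on the horizontal axis, blue for WT and red for KO, circles for hippocampus and triangles for cortex, for libraries with at least 10 cells in the cluster. *Enpp6* lies between 1.86 and 2.17 in Oligo2 and *Ctps* between 0.40 and 0.55 in Oligo4, each above every library of the other clusters, and most other genes overlap between clusters.

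The clusters Oligo2 and Oligo3 had each been joined from 2 smaller clusters, and *Enpp6* separated these as well. Its mean was 2.41 and 1.83 in the parts of Oligo2, with 778 and 1604 cells, and 0.53 and 0.13 in the parts of Oligo3, with 4795 and 2784 cells. *Bcas1*, in contrast, stood at 1.27 and 1.30 in the former pair and at 1.33 and 1.41 in the latter.

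*Ctps*, which encodes CTP synthase, an enzyme of pyrimidine nucleotide synthesis, reversed the highest and lowest clusters of *Enpp6*. It was highest in Oligo4, where the 8 libraries lay between 0.40 and 0.55, and lowest in Oligo2, between 0.078 and 0.13. Oligo1 (0.16 to 0.20) and Oligo3 (0.15 to 0.20) overlapped. A *Ctps* UMI was found in 50.02% of Oligo4 cells and in 14.6% of Oligo2 cells (means of 4 mice). Over all cells *Ctps* was 0.19 ± 0.028 in WT and 0.19 ± 0.013 in KO, with an interval of the difference from -0.062 to 0.060. Within Oligo4 it was 0.51 ± 0.031 in WT and 0.46 ± 0.017 in KO, and the difference of -0.050 had a 95% interval of -0.13 to 0.027.

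*Gpr17* was found in few cells. It had a UMI in 4.21% and 4.62% of the hippocampal and cortical cells of WT mouse 1, in 6.97% and 9.26% of those of WT mouse 4, in 5.75% and 7.73% of those of KO mouse 3, and in 8.07% and 4.87% of those of KO mouse 6. The highest and lowest of these were both WT libraries, so the range of KO lay inside that of WT. Mean levels were 0.049 ± 0.018 in WT and 0.052 ± 0.0023 in KO, and limma's difference of 0.0035 had a 95% interval of -0.041 to 0.048. The difference was 0.018 to 0.020 in 3 of 4 batches and -0.042 in the cortex of mice 4 and 6. *Gpr17* was also higher in Oligo4, with a UMI in 13.9% of cells, than in Oligo2 (4.68%), Oligo3 (6.06%) and Oligo1 (6.16%). Libraries of Oligo4 spread from 0.036 to 0.16 and overlapped with those of the other clusters.

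*Neu4* and *Tmem2*, the latter a hyaluronidase of the cell surface, were the rarest members and did not reach the minimum of a UMI in 5% of cells, so they were not tested. *Neu4* was found in 0.671% (95% Clopper-Pearson interval 0.307 to 1.27) to 1.81% (1.31 to 2.43) of the cells of WT libraries and in 0.774% (0.312 to 1.59) to 2.14% (1.36 to 3.20) of those of KO libraries. *Tmem2* was found in 0.885% to 2.31% and in 0.790% to 2.10% of cells. These intervals cover counting error only. Since only oligodendrocytes were in the files, no other cell type gave a background for these shares, but within the same cells *Snap25*, a neuronal gene, had a UMI in 3.73% to 7.63% of cells and *Gad1*, of inhibitory neurons, in 0.0891% to 1.21%. The shares for *Gpr17*, *Neu4* and *Tmem2* lay in or near the range of *Snap25* and *Gad1*. Some genes on lists for other cell types were commoner. *Hbb-bs*, an erythrocyte gene, had a UMI in 11.13% to 22.65% of cells in WT libraries and 21.79% to 45.91% in KO libraries. *Slc1a2*, an astrocyte gene, had one in 47.6% to 60.0% and 35.9% to 58.6%. The part of RNA from other cells in the members, rare or common, was not tested.

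Cells with UMIs of both *Gpr17* and *Neu4* numbered 23 of 12581 (0.183%). There were 2, 1, 0 and 4 of them in the hippocampus and cortex of WT mouse 1 and of WT mouse 4, and 10, 0, 5 and 1 in those of KO mice 3 and 6. The largest share was 0.359% (interval 0.172 to 0.660) in the hippocampus of KO mouse 3 and 0.356% (0.0971 to 0.910) in the cortex of WT mouse 4. A share of 0 allowed up to 0.287% in the hippocampus of WT mouse 4 and up to 0.279% in the cortex of KO mouse 3.

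The transcription factors *Tcf7l2* and *Nkx2-2*, a homeodomain repressor of the oligodendrocyte lineage, had intervals that included 0 in every comparison between genotypes. *Tcf7l2* lay between 0.25 and 0.33 in WT libraries and between 0.23 and 0.33 in KO libraries, with a difference of -0.019 (95% interval -0.088 to 0.050). *Nkx2-2* lay between 0.23 and 0.30 in WT and between 0.23 and 0.34 in KO, with a difference of 0.0071 (interval -0.10 to 0.12). For *Tcf7l2* the largest difference within a cluster was -0.029 in Oligo4, and for *Nkx2-2* it was 0.041 in Oligo2, both inside intervals that crossed 0. By cluster, libraries of *Tcf7l2* in Oligo3 (0.26 to 0.38) lay above those in Oligo1 (0.16 to 0.24), and every other pair of clusters overlapped, as did every pair for *Nkx2-2*.

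*Bcas1*, a cytoplasmic protein used as a marker of cells that are forming myelin, was detected in 86.7% to 92.7% of WT and 85.5% to 93.9% of KO cells per library. Its level was 1.41 in hippocampus and 1.40 in cortex of WT mouse 1, and 1.39 and 1.27 in WT mouse 4. It was 1.31 and 1.40 in KO mouse 3, and 1.26 and 1.29 in KO mouse 6. In hippocampus both KO libraries lay below both WT libraries, and in cortex the genotypes overlapped. By cluster, Oligo1 (1.17 to 1.26) lay below Oligo3 (1.29 to 1.45) and Oligo4 (1.29 to 1.64), and Oligo2 overlapped with each. The difference between genotypes over both tissues was -0.050 (95% interval -0.18 to 0.085), and the test of whether it differed between tissues gave -0.12 (interval -0.25 to 0.0018, adjusted p of limma 0.804). limma called 0% of 9257 genes in that test, with 574 at an unadjusted p under 0.05.

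*Fyn*, a kinase that relays contact with the axon to the cytoskeleton and to local synthesis of myelin basic protein, lay between 0.43 and 0.52 in WT and between 0.41 and 0.50 in KO libraries. On the mean log2 scale the difference within batches was between -0.064 and -0.010, below 0 in 4 of 4. Its sign was not the same on every scale, since in the hippocampus of mice 4 and 6 the share of thinned cells with a *Fyn* UMI was 0.27 points higher in KO, and as UMIs per 10000 *Fyn* was 0.691 in KO and 0.674 in WT there. The overall log2 difference of -0.030 had an interval of -0.15 to 0.088. *Itpr2* had higher mean log2 values in KO in 4 of 4 batches, by 0.0050 to 0.059, although its thinned share differed by -0.476 points in the cortex of mice 4 and 6, and it varied more between mice: 0.12 and 0.077 in the 2 WT mice and 0.18 and 0.089 in the 2 KO mice. Its difference was 0.035 (95% interval -0.091 to 0.16). Mice 1 and 3, which shared batches, were both above mice 4 and 6. For neither gene did the interval leave out 0. By cluster, libraries of *Fyn* in Oligo4 (0.48 to 0.57) lay above those in Oligo2 (0.36 to 0.46), and the other pairs overlapped, whereas *Itpr2* overlapped in every pair.

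**Figure D3:**
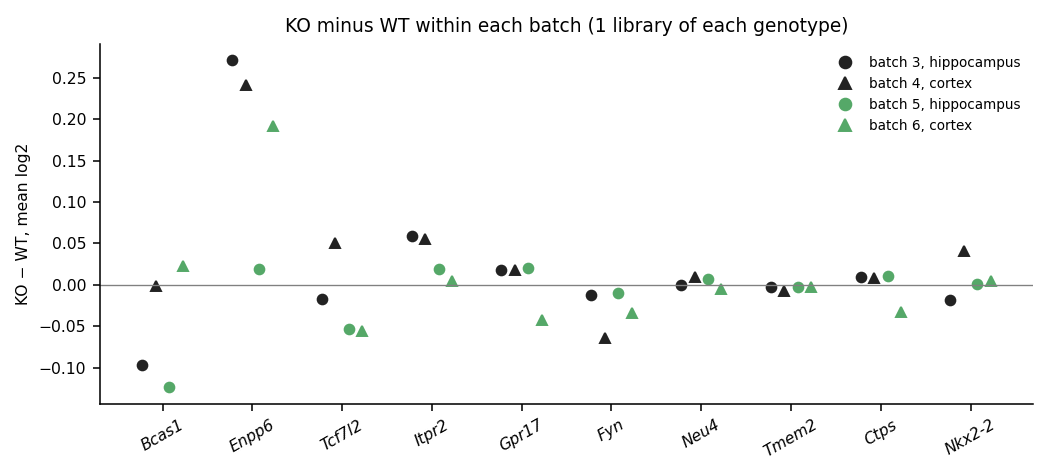
Difference between the KO and the WT library of each batch in mean log2(normalized UMIs + 1) on the vertical axis, for each gene on the horizontal axis. Black symbols are mice 1 and 3 and green symbols mice 4 and 6, circles hippocampus and triangles cortex. *Enpp6* is above 0 in 4 of 4 batches, from 0.019 to 0.27, and *Fyn* below 0 in 4 of 4, whereas the points of *Gpr17*, *Ctps* and *Nkx2-2* lie on both sides of 0.

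Of the 8 members tested over all cells, 4 were higher and 4 lower in KO, with a median difference of 0.0012 beside 0.0013 for all 9257 genes, and 0 were called in either direction (0% of all genes). Within Oligo2, 7 members were tested, with a median difference of 0.0017. Within Oligo3 and Oligo4, 8 members were tested, with medians of -0.00083 and -0.0022. Across these 3 clusters the differences of the tested members ran from -0.050 (*Ctps* in Oligo4) to 0.047 (*Enpp6* in Oligo3).

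**Figure D4:**
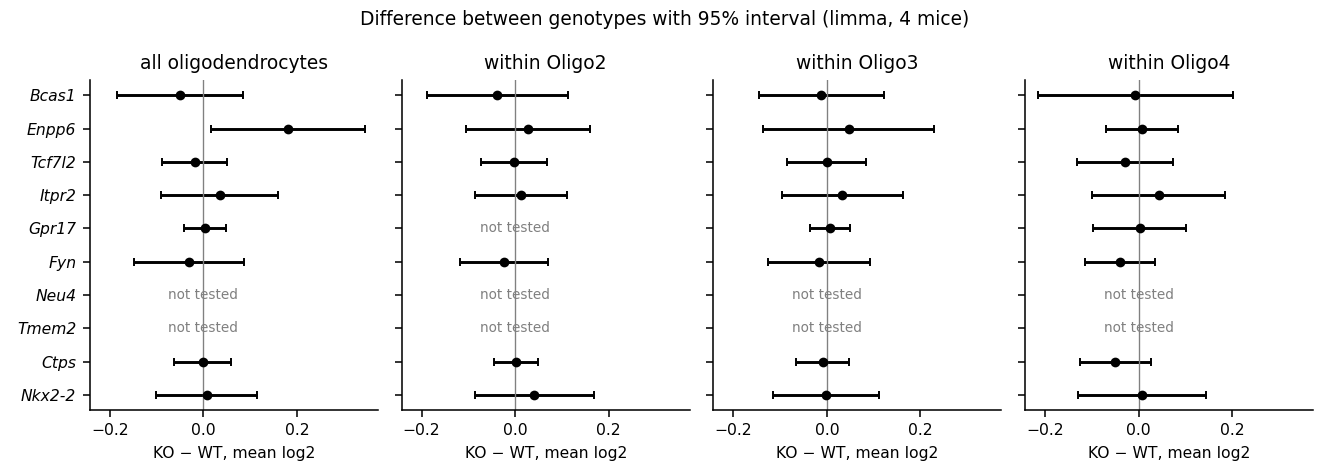
Difference between genotypes, KO minus WT, in mean log2(normalized UMIs + 1) on the horizontal axis for each gene, with the 95% interval of limma's fit over 4 mice, for all oligodendrocytes and within 3 clusters. Only *Enpp6* over all oligodendrocytes has an interval that leaves out 0, from 0.017 to 0.35, and its adjusted p is close to 1; genes marked as not tested had a UMI in fewer than 5% of cells.

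The number of members found per cell was also compared. In cells thinned to 5000 UMIs, a mean of 1.75 and 1.76 of the 10 genes were found per cell in the 2 WT mice, and 1.86 and 1.77 in the 2 KO mice (difference 0.063, two-sided exact permutation p = 0.3333). This number is the sum of the members' thinned shares, so it is not a result apart from that of *Enpp6*. The share of *Enpp6* differed by 8.22 points, and those of the other members by -2.28 (*Fyn*) to 1.42 (*Itpr2*). A cell held at most 8 members, 2 cells did so, and 87 cells (0.691%) held 5 or more. Those with 5 or more made up 0.337%, 0.671%, 0.382% and 0.623% of WT libraries and 1.11%, 0.372%, 1.19% and 0.111% of KO libraries, with the highest shares in the KO hippocampus libraries and the lowest in the cortex of KO mouse 6. In the thinned cells, the correlation of detection within a library, over the 28 pairs of the 8 commoner members, ran from -0.11 for *Enpp6* with *Ctps* to 0.072 for *Bcas1* with *Ctps*. Both *Enpp6* with *Ctps* (median -0.086) and *Enpp6* with *Fyn* (-0.074 to -0.017, median -0.036) were below 0 in 8 of 8 libraries. These are small values in sparse counts from cells that share a library, given as a description.

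Between hippocampus and cortex *Enpp6* again differed most. The fit treated the 8 libraries as separate and did not pair the tissues of a mouse. Hippocampus minus cortex was -0.17 (95% interval -0.31 to -0.032, adjusted p of limma 0.833), with the 2 tissues nearly equal in WT mouse 4 (0.67 and 0.66) and hippocampus lower in the other 3 mice. For *Tcf7l2* it was -0.048 (interval -0.093 to -0.0044, adjusted p of limma 0.911), below 0 in 4 of 4 mice. limma called 0% of 9257 genes between tissues, with 490 at an unadjusted p under 0.05, and edgeR called 0. The difference of *Enpp6* between genotypes was 0.15 in hippocampus and 0.22 in cortex, and the test of that contrast gave -0.072 (interval -0.37 to 0.23, adjusted p of limma 0.935).

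Genes of neighbouring stages (committed precursors, other newly formed, myelin-forming and mature oligodendrocytes) were counted from lists of their own. Between genotypes, neither limma nor edgeR called any of them over all cells or within Oligo2, Oligo3 or Oligo4. Of the progenitor genes, 2 were tested within Oligo4, and edgeR called 1, *Lhfpl3*, among its calls counted above for that cluster, whereas limma called 0. Over all cells, without thinning, *Lhfpl3* had a UMI in 5.31% and 6.21% of hippocampal cells of WT mice 1 and 4. In KO mice 3 and 6 it was 13.9% and 13.2%. The cortex gave 4.40% and 5.34% in these WT mice and 6.98% and 9.29% in these KO mice. By cluster the mean level of *Lhfpl3* was highest in Oligo1 (0.16, KO libraries only), beside 0.053 in Oligo2, 0.053 in Oligo3 and 0.086 in Oligo4. Not every progenitor gene went this way. In cortex *C1ql1* had a UMI in 2.3% of cells of each WT mouse, and in 1.1% and 0.66% in KO mice 3 and 6. In hippocampus it had one in 3.2% of cells of each WT mouse, and in 4.5% and 3.7% in these KO mice. Of 17 other genes of newly formed oligodendrocytes, 12 were tested, and 11 had lower values in KO over all cells with a median difference of -0.018, beside 0.0013 for all genes. Of 5 genes of committed precursors only *Sox4* reached the minimum over all cells, with a difference of 0.011, and within Oligo4 *Vcan* reached it as well (-0.0085). Of 10 genes of myelin-forming cells, 8 had higher values in KO (median 0.013), and of 13 genes of mature oligodendrocytes, 10 did (median 0.078). The 3 genes of these lists with the largest differences were *Apod* (0.32, SE 0.27), *Trf*, the iron carrier transferrin (0.30, SE 0.31), and *Cldn11*, the tight junction protein of myelin (0.29, SE 0.087), each with an adjusted p of limma of 0.9997. All of them differed more than any member. The lower values of the other newly formed genes were not shared by every cluster: 6 of 11 tested were higher in KO within Oligo2 (median 0.0029), 4 of 12 within Oligo3 (-0.012) and 2 of 12 within Oligo4 (-0.031). Of the 10 myelin-forming genes, 6 were higher within Oligo2 (median 0.015), 5 within Oligo3 (-0.00016) and 4 within Oligo4 (-0.036). Of the mature genes, 10 of 13 were higher within Oligo2 (median 0.11), 8 of 12 within Oligo3 (0.069) and 8 of 10 within Oligo4 (0.097).

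By cluster, the members did not share 1 pattern. Of the 8 commoner members, *Enpp6* and *Nkx2-2* were highest in Oligo2, *Itpr2* in Oligo1, *Tcf7l2* in Oligo3, and *Bcas1*, *Gpr17*, *Fyn* and *Ctps* in Oligo4. Of the 12 commoner genes of the other newly formed list, 6 were highest in Oligo4, among them *Ust*, a sulfotransferase (0.20 in Oligo4 and 0.022 in Oligo2), whereas 6 of the 13 mature genes were highest in Oligo2. Over the 28 groups of at least 20 cells from 1 library and 1 cluster, the profile of *Enpp6* ran against those of *Ctps* (Pearson's r -0.72), *Fyn* (-0.67) and *Gpr17* (-0.60), and *Ctps* ran with *Gpr17* (0.74) and *Fyn* (0.66).

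Among the 9257 genes tested, the profiles most like that of *Enpp6* over these 28 groups were those of *Epb41l2* (r = 0.986), *Efr3b* (0.982) and *Selenop* (0.981). Those most like *Ctps* were *Itih3* (0.969), *Lpar1* (0.968) and *Ust* (0.964). For *Fyn* the nearest was *Nudt4* (0.926), then *Syt11* and *Ubl3*, for *Bcas1* it was *Anp32e* (0.889), then *Ube2d1* and *Ndfip1*, and for *Gpr17* it was *Rap1gap* (0.883), then *Ssbp3* and *Diaph3*. *Nkx2-2* was followed most closely by *Mlf2* (0.872), *Rtraf* and *Uqcr10*, *Itpr2* by *Gpx4* (0.865), *Rbm45* and *Morf4l2*, and *Tcf7l2* by *Gabarapl1* (0.732), *Amotl2* and *Creb5*. The points share libraries and depth, and the values are descriptions.

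The promoters of *Enpp6* and *Ctps*, each with a cluster above every library of the other clusters, are shown for context. They are the 250 bases before the start of transcription on the strand of the gene, with sequences from RefSeq (GRCm38.p6). The *Enpp6* gene lies on chromosome 8 (46986887 to 47096762, plus strand) and *Ctps* on chromosome 4 (120539868 to 120570276, minus strand). Capitals mark a match to CACTTNA or its reverse complement TNAAGTG, letters bound by NKX2-2.
Enpp6 chr8:46986637-46986886 plus strand: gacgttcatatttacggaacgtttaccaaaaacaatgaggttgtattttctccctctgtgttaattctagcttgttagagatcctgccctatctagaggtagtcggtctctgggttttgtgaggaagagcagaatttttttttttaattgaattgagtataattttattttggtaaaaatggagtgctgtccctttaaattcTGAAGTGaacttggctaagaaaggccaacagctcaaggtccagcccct
Ctps chr4:120570277-120570526 minus strand: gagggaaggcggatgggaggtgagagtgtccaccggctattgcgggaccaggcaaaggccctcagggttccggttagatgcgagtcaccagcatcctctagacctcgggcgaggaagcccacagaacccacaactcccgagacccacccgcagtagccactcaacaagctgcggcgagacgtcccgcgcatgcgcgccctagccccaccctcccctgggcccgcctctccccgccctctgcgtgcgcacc
The *Enpp6* promoter held 1 match, 42 bases before the start, and was poor in G and C (38.4%, below all but 9.05% of 32851 mouse promoters, whose median was 52.4%). The *Ctps* promoter shown held none and was 67.6% G and C. The other promoter of *Ctps*, not shown, also held none and was 53.6% G and C, nearer the median. RefSeq promoters were found for 7 members, *Enpp6*, *Tcf7l2* and *Ctps* (each of the last pair with 2), *Itpr2*, *Fyn*, *Neu4* and *Nkx2-2*, and were not found for *Bcas1*, *Gpr17* and *Tmem2*. The letters occurred in those of *Enpp6*, *Nkx2-2* and 1 of *Tcf7l2*, and in 10.1% of all promoters of this length. CTTTGA or TCAAAG, letters bound by TCF7L2, occurred in those of *Fyn* and *Neu4* and in 13.8% of all. A match is not a bound site.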

How the data were processed

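Cells were dissociated with actinomycin D, sorted on scatter and viability gates that excluded debris, erythrocytes and doublets, and sequenced with 10x 3′ chemistry. According to the submitters' processing notes, Cell Ranger 5.0.0 and the genome build mm10 were used; per the study's methods, the authors filtered cells and normalized UMI counts by deconvolution in scran. The authors deposited log2(UMI count divided by the cell's size factor, plus 1) for oligodendrocytes only, with no batch correction in these values, and a table that gives each cell's UMI count, size factor (a ratio), library and cluster. Every 1 of the 42420937 values above 0 gave a whole UMI count within 0.001.

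Mean log2 values per library were averaged over the 2 tissues of a mouse. Genes detected in 5% or more of cells (mean over libraries) entered limma 3.58.1 in R 4.3.3 (genotype: 4 mice; tissue: 8 libraries with genotype as covariate; genotype by tissue: hippocampus minus cortex per mouse), with Benjamini-Hochberg adjustment over all genes and a threshold of 0.05. edgeR 4.0.16 on sums of the recovered counts was the alternative test. With 2 mice a genotype, p-values of the comparisons between genotypes measure the spread between these mice. The fit had no term for mice of the same age, so this spread includes the age and batch difference that both genotypes shared. The tissue test had no term for mouse, so its p-values mix the spread between mice and between libraries and leave out the pairing of tissues. Both tests were tried on simulated data. Library shares carry 95% Clopper-Pearson intervals, and a share of 0 an upper limit of 3 counts. Deviations of the same mouse in both tissues correlated across genes at 0.843 (WT) and 0.853 (KO), and those of mice of the same age, which shared batches, at 0.742. The mice of a genotype also differed in age and batch, so these correlations cannot show by themselves that the tissues were matched. The pairing of tissues was taken from the mouse numbers in the labels.

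The members, lists and tests were chosen with earlier results of these data known. Named were all members, the 3 genes of the stage lists with the largest differences and the 3 genes most like each member. *Sox4*, *Vcan* and the marker genes *Mog*, *Pdgfra*, *Ptprz1*, *Lhfpl3*, *C1ql1*, *Csf1r*, *Tmem119*, *C1qa*, *C1qb*, *Snap25*, *Gad1*, *Slc1a2* and *Hbb-bs* fall outside this rule. They were named after their values were seen. *Casr*, of the newly formed list, was not found under that symbol.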

Additional observations from a re-analysis of the deposited data

How the results depend on the processing

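No member was called in any comparison by any of the alternatives. Of 500 values of members under an alternative, 438 kept their direction and 62 turned it. The *Enpp6* difference over all oligodendrocytes kept its direction throughout, from 0.14 to 0.33, and from 0.11 to 0.25 when 1 mouse was left out. The first range spans unlike scales, so its ends cannot be compared in size. These scales were mean log2 values, log2 of the mean plus 0.1 or 1, and edgeR's log2 fold changes of UMI sums. With a replicate block for mice of the same age its adjusted p from limma was 0.460, and with a replicate block for mouse its tissue difference had 0.243; the block brought no call, and counts of calls stayed at 0. Counts of called genes, 0 in each comparison, became 2, 2, 1 and 12 over all oligodendrocytes and within Oligo2, Oligo3 and Oligo4 on the log2 scale of the mean plus 0.1, became 8, 4, 3 and 25 with edgeR, and became 1 over all oligodendrocytes and 1 within Oligo3 without the filter on low genes; the cause was not tested. Between genotypes over all oligodendrocytes, *Ctps* turned to 0.030 with edgeR, 0.00031 without Oligo1, 0.010 in hippocampus alone and 0.0099 without batch 6 (chosen after seeing the data), *Nkx2-2* to -0.0083 in hippocampus alone, and *Bcas1* to 0.011 and *Gpr17* to -0.012 in cortex alone. *Tcf7l2* turned to 0.0067 within Oligo2 and to -0.0074 within Oligo3 with edgeR, and within Oligo3 to -0.015 and -0.0036 with pseudocounts of 0.1 and 1 on the mean. *Nkx2-2* turned to 0.016 within Oligo3 and -0.038 within Oligo4 with edgeR. *Fyn* turned to 0.029 with edgeR and to 0.013 and 0.0044 with these pseudocounts between tissues, and the share of cells with a *Ctps* UMI to -0.075 points without thinning. The cause was not tested, and each of these values lay near 0.

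With 1 mouse left out, a lone mouse being assumed to vary like the others, directions turned as follows. Over all oligodendrocytes the ranges were -0.040 to 0.0023 for *Tcf7l2*, -0.011 to 0.080 for *Itpr2*, -0.0093 to 0.016 for *Gpr17*, -0.067 to 0.0072 for *Fyn*, -0.021 to 0.018 for *Ctps* and -0.026 to 0.040 for *Nkx2-2*. Within Oligo2 they were -0.086 to 0.010 for *Bcas1*, -0.027 to 0.084 for *Enpp6*, -0.022 to 0.018 for *Tcf7l2*, -0.028 to 0.052 for *Itpr2*, -0.060 to 0.012 for *Fyn*, -0.0076 to 0.011 for *Ctps* and -0.0097 to 0.092 for *Nkx2-2*. Within Oligo3 they were -0.053 to 0.029 for *Bcas1*, -0.029 to 0.12 for *Enpp6*, -0.024 to 0.024 for *Tcf7l2*, -0.013 to 0.079 for *Itpr2*, -0.0034 to 0.017 for *Gpr17*, -0.048 to 0.016 for *Fyn*, -0.026 to 0.0092 for *Ctps* and -0.037 to 0.034 for *Nkx2-2*. Within Oligo4 they were -0.10 to 0.087 for *Bcas1*, -0.011 to 0.026 for *Enpp6*, -0.070 to 0.012 for *Tcf7l2*, -0.020 to 0.11 for *Itpr2*, -0.036 to 0.041 for *Gpr17* and -0.046 to 0.061 for *Nkx2-2*. Between tissues they were -0.036 to 0.032 for *Bcas1*, -0.0099 to 0.011 for *Gpr17* and -0.016 to 0.0051 for *Fyn*, and for genotype by tissue -0.21 to 0.071 for *Enpp6* and -0.062 to 0.00011 for *Nkx2-2*. *Neu4* and *Tmem2* were detected in too few cells to be tested.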
